A study of Mus musculus with 24 samples.

Results

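Astrocytes of the brainstem were compared with astrocytes of the cortex in adult mice, in libraries labelled as controls of a series on Nfia. The 6 libraries were those labelled control from the 2 regions, 3 from brainstem and 3 from cortex, of 24 libraries in the series, and no measured value entered their choice. The mice were C57BL6, aged 20 weeks and of genotype NFIAfl/fl; Aldh1l1-GFP in both regions, so the groups share the floxed alleles and the reporter and, by the labels, differ only in the tissue dissected. Aldh1l1-GFP labels cells in which the promoter of Aldh1l1, a folate enzyme abundant in astrocytes, is active, and the dissociated tissue was sorted by fluorescence before RNA isolation. The other 6 libraries used here, labelled knockout, came from the same regions of NFIAfl/fl; Aldh1l1-CreER; Aldh1l1-GFP mice, in which an inducible recombinase is directed to the same cells. The labels do not say whether the 3 libraries of a group came from separate mice, so p-values measure the spread between these libraries, which may be technical.

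Astrocytes clear transmitters from synapses, buffer potassium, supply neurons with metabolites and secrete proteins that act on synapses. In development, the neural tube is divided along its length by transcription factors: Emx2 and Lhx2 mark the forebrain that forms the cortex, while Irx, Pax3 and Hox genes mark midbrain, hindbrain and spinal levels. Adult glia can retain part of that code. Cortex is rich in glutamatergic synapses, and brainstem circuits use glycine as well as GABA for inhibition, which makes uptake of these transmitters by astrocytes of each region a natural point of comparison.

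Libraries held from 2830746 to 5970802 reads, recovered from the deposited values, and levels below are normalised read counts, that is, reads divided by a size factor computed jointly over the 6 libraries. Each gene was tested in limma on log2 of the value plus 5, an offset that pulls the fold changes of weakly expressed genes toward 0. "Rose" and "fell" are used for brainstem relative to cortex where the adjusted p is under 0.05. The first principal component, with 55.5% of the variance, separated the regions, with cortex library 1 nearest to the brainstem libraries. The second, with 17.1%, set brainstem library 2 apart from the other 5. Nfia, the gene targeted in the series, is given on the scale of the 12 brainstem and cortex libraries, with size factors computed over all 12. It gave 6316, 6569.2 and 5533 normalised counts in brainstem libraries labelled knockout and 2113, 3815 and 2878 in those labelled control. In cortex it gave 6410.0, 7232 and 6707 in libraries labelled knockout and 3675, 4239 and 4505 in those labelled control. That is opposite to the labelled loss. An exchange of the genotype labels and gene-level counts that miss a deleted exon cannot be told apart here, so the genotype names are those of the labels, and whether the libraries labelled control had intact Nfia was not tested.

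The sorted cells carried astrocyte markers in all 6 libraries. Aldh1l1 itself measured 431, 865 and 452 in brainstem against 711, 915 and 723 in cortex, with overlapping groups. Aqp4, the water channel of astrocyte end-feet, measured 6409, 14299 and 8238 against 6531, 7567 and 7574 (log2 fold change 0.34, adjusted p = 0.57), and the filament gene Gfap 801, 1225 and 981 against 831, 618 and 908 (log2 fold change 0.35, adjusted p = 0.372). All 34 listed astrocyte core markers were tested. Of these 0 rose, 9 fell and 25 did not pass. At an unadjusted p under 0.05 in limma, 1 would be higher, and DESeq2 and edgeR called 0 higher. Counts of 0 below are followed by the same 3 values, as (limma unadjusted 1, DESeq2 0, edgeR 0) here. The 34 had a median log2 fold change of -0.68 against 0.01 over all genes tested. Their summed level was 159397, 388831 and 238665 in brainstem libraries 1 to 3 and 488776, 656898 and 581324 in cortex libraries 1 to 3. In bulk libraries, fewer astrocytes and less RNA of these genes per astrocyte cannot be told apart.

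Markers of other cells differed in level between libraries, some by region. The 12 choroid plexus markers summed to 257539, 53645 and 126908 in brainstem and 66881, 5971 and 2425 in cortex libraries. None of the 12 passed the limma test (limma unadjusted 7, DESeq2 2, edgeR 0). They had a median log2 fold change of 3.12, and each had reads in both regions. The brainstem library with the most choroid plexus signal, library 1, had the least astrocyte marker signal, and library 2 had the reverse. Of the genes that rose, 161 of 528 (30.5%) had the order of these sums within brainstem and were highest in cortex library 1, as the sums were, against 1204 of 11895 tested (10.1%). Of the 68 named genes that rose, 14 (20.6%) did so, among them A2m, Fabp3, Foxj1, Got2, Grm8, Ifi27, Serpinb1b, Slit2, Stra6 and Zic1. The 18 oligodendrocyte markers summed to 38645, 45734 and 65527 in brainstem against 22570.5, 15092 and 14534 in cortex. The 12 cortical excitatory neuron markers summed to 1191, 2651 and 1735 in brainstem against 8354, 9744 and 10275 in cortex. Most of these sums came from Rorb and Camk2a. Rorb gave 986.5, 2480 and 1469 in brainstem and 4445, 6092 and 5789 in cortex. Camk2a gave 38.5, 9.66 and 75.3 in brainstem and 3549, 3186 and 3859.9 in cortex. Slc17a7 and Nrgn, also on the list, were far lower, with means of 10.5 and 13.2 in brainstem and 109 and 128 in cortex. Of the 10 members tested, 7 had a negative and 3 a positive log2 fold change. Which cells the Rorb reads came from was not tested. Endothelial markers, with 0 of 16 passing (limma unadjusted 6, DESeq2 0, edgeR 0), summed to 1996, 1910.5 and 2795 against 1563, 534 and 1951, and microglia markers to 2843, 2304 and 3794 against 4147, 3096 and 3562. The part of these cells in the results below was not tested. Where a list or an order of sums is set beside a result, that is a description. The ribosomal RNA gene Rn45s took 18.0% to 25.6% of reads in brainstem and 19.0% to 20.9% in cortex.

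**Figure D1:**
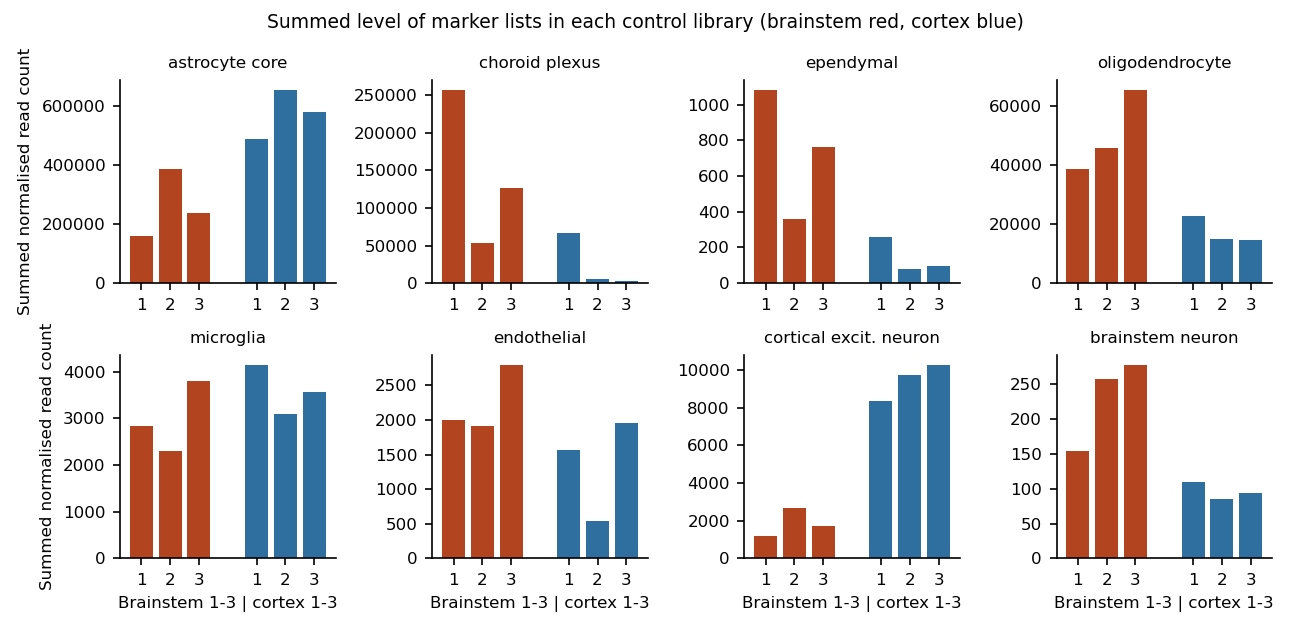
Summed normalised read count (linear axes from 0) of 8 marker lists in each of the 3 brainstem (red) and 3 cortex (blue) libraries labelled control. Astrocyte core and cortical excitatory neuron markers are lower in all 3 brainstem libraries, oligodendrocyte and ependymal markers are higher in all 3, and choroid plexus markers range over 53645 to 257539 within brainstem. Most of the cortical excitatory neuron sums came from Rorb and Camk2a.

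Of 11895 genes tested, 1185 (9.96%) passed, of which 528 (4.44% of those tested) rose in brainstem and 657 (5.52%) fell. The 9.96% is the background for the counts by list below. With an absolute log2 fold change above 1 as well, 465 (3.91%) rose and 491 (4.13%) fell. The 3 brainstem values did not overlap the 3 cortex values in 3379 genes (28.4%). Counts of calls depended on single libraries: 2282 genes passed without brainstem library 2, 611 without brainstem library 3, 521 without cortex library 2 and 511 without cortex library 3. The split between directions depended on scaling. It was 729 higher and 476 lower with total reads other than Rn45s, 1620 and 393 on the deposited scale, and 756 and 202 with the astrocyte core markers as scaling. This last one moved the median of all genes by 0.56 on the log2 scale, so the values below are relative to the median gene. That shift is toward higher in brainstem, so a rise that passes with this scaling gives no separate support. None of the 144 named genes that passed changed sign under any scaling tried.

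**Figure D2:**
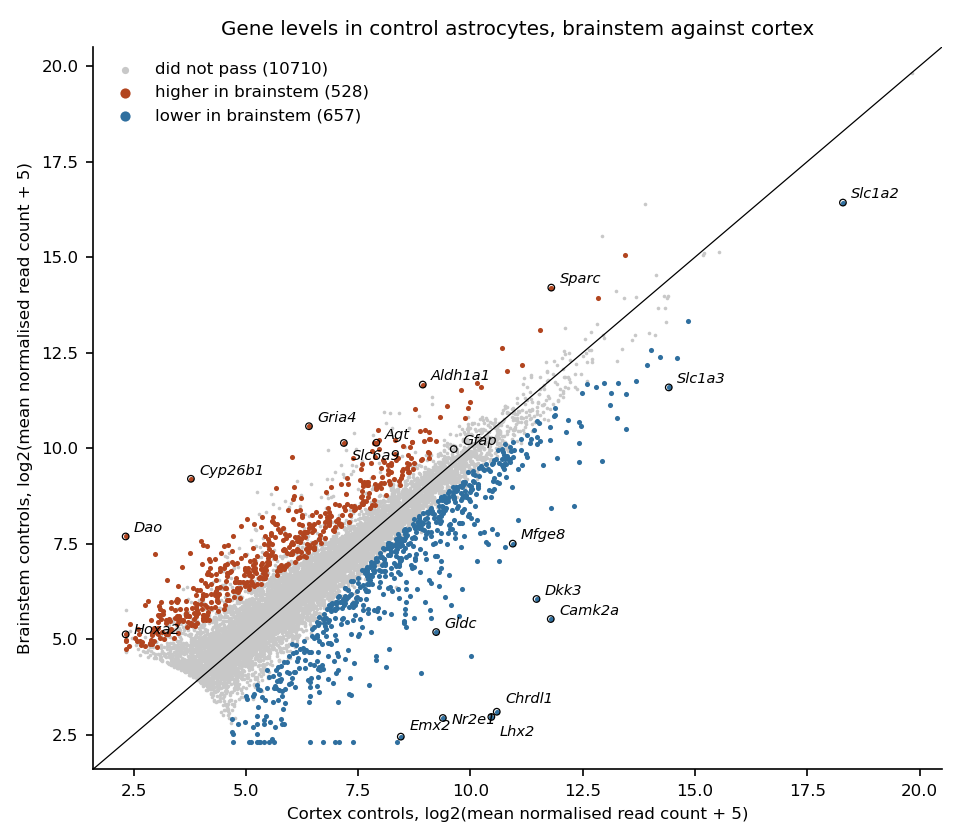
Mean level of each of the 11895 tested genes in brainstem (vertical) and cortex (horizontal) libraries labelled control, both as log2 of the normalised read count plus 5, n = 3 each. The line marks equal levels. The 528 genes that rose are red, the 657 that fell are blue, and Lhx2, Emx2 and Nr2e1 lie at the bottom edge, near 0 in brainstem.

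Several transcription factors of forebrain identity were at or near 0 in brainstem libraries, among them Lhx2, Nr2e1 and Emx2. Lhx2, a LIM homeobox selector of the cortex (chromosome 2, 38339281 to 38369733, plus strand of GRCm38), measured 1.45, 5.52 and 1.45 in brainstem against 1250.1, 1545 and 1431 in cortex, 502-fold lower (log2 fold change -7.54, SE 0.27, adjusted p = 6.51e-09). Nr2e1, an orphan nuclear receptor known for neural stem cells of the forebrain, measured 3.63, 0 and 4.34 against 640.3, 737 and 614 (log2 fold change -6.50, SE 0.31, adjusted p = 1.17e-07). Emx2, a homeobox gene of the dorsal telencephalon, gave 1 read in brainstem and 1175 in cortex, where it measured 328, 342 and 364. For none of these genes did any brainstem library come near a cortex library.

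Of the 24 forebrain factors listed, 12 were expressed enough to be tested. Of these 0 rose (limma unadjusted 1, DESeq2 1, edgeR 0) and 11 fell, among them Lhx2, Emx2, Nr2e1, Fezf2, Six3, Otx1, Dmrta2, Pax6 and Tbr1. The median log2 fold change of the 12 was -3.26, or -5.07 with the 4 that had no brainstem read at their limits, against 0.01 over all genes tested. Fezf2, known for specifying corticofugal neurons, had 0 reads in brainstem and 407 in cortex (adjusted p = 1.27e-05). The exception was Otx2, also a gene of choroid plexus epithelium, at 1689.7, 419 and 841 in brainstem against 293, 74.2 and 67.0 in cortex (log2 fold change 2.83, adjusted p = 0.0914), in the order of the choroid plexus sums given above. Emx2os, the transcript antisense to Emx2, also had 0 reads in brainstem and 440 in cortex. The strand used in counting is not given in the sources used here, so its reads and those of Emx2 cannot be told apart where the genes overlap.

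Some factors of the midbrain and hindbrain rose. Of 33 listed, 9 were tested, 5 rose (Irx2, Irx5, Pax3, Lmx1a and Gata2, the last lost without brainstem library 1 or cortex library 2 or 3) and 0 fell (limma unadjusted 0, DESeq2 0, edgeR 0). Their median log2 fold change was 1.83. Irx2, an Iroquois homeobox gene, measured 25.4, 27.6 and 24.6 in brainstem and had 0 cortex reads, at least 29.6-fold higher when 3 reads are set as the limit over the group (adjusted p = 0.00539). Irx5 measured 47.9, 51.0 and 34.7 against 0, 10.5 and 0 (log2 fold change 2.75, adjusted p = 0.00551). Pax3, a paired-box gene of the dorsal neural tube, gave 69 reads in brainstem against 1 in cortex (adjusted p = 0.0106). Lmx1a, a LIM homeobox gene of the roof plate and midbrain floor plate, measured 88.6, 70.3 and 59.3 against 20.1, 8.73 and 3.19 (log2 fold change 2.44, adjusted p = 0.00387). Without brainstem library 1, Irx2 and Pax3 fell under the filter on low values and had no test.

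Zic genes, zinc-finger factors of the dorsal midline and cerebellum, differed among themselves, with rises in Zic1 and Zic4 and none in Zic2. Zic1 measured 306, 121 and 197 in brainstem against 72.8, 43.7 and 56.3 in cortex (log2 fold change 1.70, SE 0.33, adjusted p = 0.00608), in the order of the choroid plexus sums within brainstem and highest in cortex library 1, as those sums were. Zic4 also rose (adjusted p = 0.0465), and was lost without any of 5 libraries, all but brainstem library 2 (adjusted p of up to 0.172). Zic2 measured 81.3 ± 37.3 against 91.0 ± 3.52 (SD, n = 3 each; log2 fold change -0.27, adjusted p = 0.705), with overlapping groups.

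Hox genes were detected almost only in brainstem, and mostly from the anterior part of the clusters. Of 39 Hox genes listed, 16 had a read in brainstem, with 388 reads in all, and 2 had a read in cortex, with 5 reads in all. Paralog groups 1 to 5 accounted for 377 of the brainstem reads, from 13 of their 15 genes, and groups 6 and 7 for 11 reads. The 19 genes of groups 8 to 13 had 0 reads in either region, where 3 reads is the limit that a count of 0 allows. Only 2 Hox genes reached the level needed for a test, and 1 passed: Hoxa2, the most anterior-acting gene of hindbrain segments (chromosome 6, 52162417 to 52164831, minus strand). It measured 27.6, 30.3 and 31.8 in brainstem and had 0 reads in cortex, at least 34.2-fold higher (adjusted p = 0.00312).

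**Figure D3:**
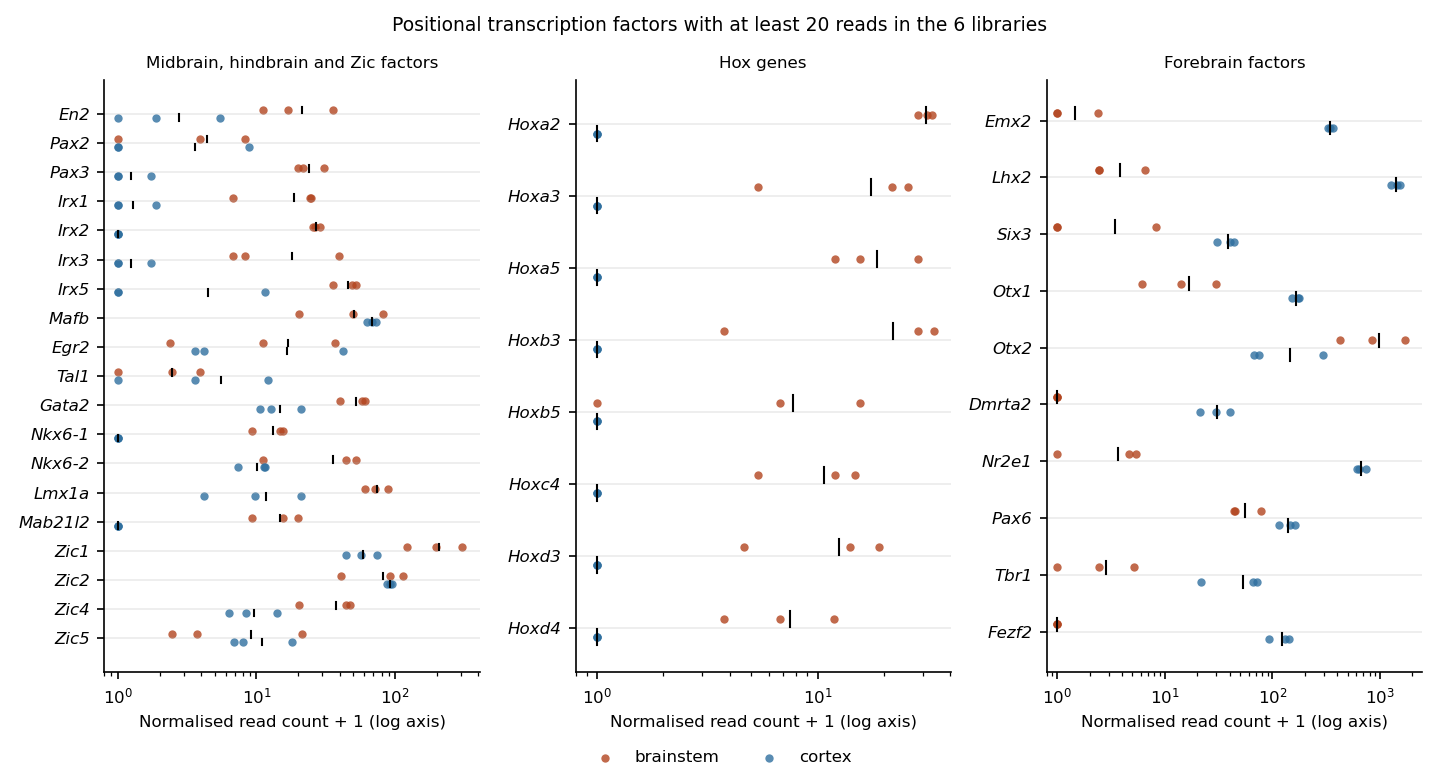
Normalised read count plus 1 (log axis) in each library of the positional transcription factors reported here with at least 20 reads over the 6 libraries, brainstem (red) above cortex (blue) for each gene, with group means as black bars, n = 3 each. Irx and Hox genes are at or near 0 in cortex, and Lhx2, Emx2 and Nr2e1 are at or near 0 in brainstem.

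The promoter windows of a forebrain gene and a hindbrain gene are shown because the members above are themselves DNA-binding factors with known short recognition cores. Sequences are RefSeq windows of GRCm38.p6, from 250 bases before to 50 after a transcription start, written in the direction of transcription. Windows were matched by symbol for 9083 of the 11895 genes tested. Capitals mark TAATTA, a core bound by many homeodomain proteins such as EMX and LHX factors, in the window of Emx2 (chr19:59458440-59458739, plus strand). In that of Hoxa2 (chr6:52164782-52165081, minus strand) they mark TGATTGAT on the opposite strand, a core bound by HOX proteins paired with their cofactors.
Emx2: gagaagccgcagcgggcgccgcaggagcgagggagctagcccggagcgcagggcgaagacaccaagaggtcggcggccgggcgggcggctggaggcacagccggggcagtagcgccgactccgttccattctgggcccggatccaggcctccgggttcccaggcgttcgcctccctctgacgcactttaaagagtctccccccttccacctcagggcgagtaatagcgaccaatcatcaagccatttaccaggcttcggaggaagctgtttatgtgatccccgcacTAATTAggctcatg
Hoxa2: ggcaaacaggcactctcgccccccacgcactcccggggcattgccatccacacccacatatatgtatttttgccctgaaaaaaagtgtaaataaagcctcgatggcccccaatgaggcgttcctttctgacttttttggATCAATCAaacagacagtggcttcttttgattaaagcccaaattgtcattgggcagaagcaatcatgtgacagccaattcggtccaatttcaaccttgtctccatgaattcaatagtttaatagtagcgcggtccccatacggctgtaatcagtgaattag
On either strand, TAATTA stood in a window of 17 of 397 genes that rose (4.28%), 25 of 479 that fell (5.22%) and 303 of all 9083 (3.34%). TGATTGAT stood in 2 of 397 that rose (0.504%), 5 of 479 that fell (1.04%) and 43 of all 9083 (0.473%). Neither motif contains the other. The motifs and genes were chosen after the values were seen, and a match is a description, not a binding site.

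Beyond positional factors, the largest rise in fitted log2 fold change, on the log2 scale of value plus 5 that shrinks weakly expressed genes, was in Cyp26b1, an enzyme that degrades retinoic acid (chromosome 6, 84571414 to 84593908, minus strand). It measured 302, 906 and 538 in brainstem against 17.1, 2.62 and 6.38 in cortex, 67.0-fold higher (log2 fold change 5.43, SE 0.45, adjusted p = 2.35e-05). Dao, D-amino acid oxidase, which breaks down D-serine and is known from astrocytes of the hindbrain, gave 528 reads in brainstem and 0 in cortex. Its brainstem levels were 153, 167 and 284, at least 230.3-fold higher than cortex (adjusted p = 3.01e-06). Dao was at 0 in every cortex library and at 153 or more in every brainstem library.

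The 12 largest rises were, in order of fitted log2 fold change, Cyp26b1, Dao, Gria4, Lpo, A2m, Thbs2, Serpinb1b, Slit2, Nefh, Fabp3, P2ry1 and Klk6. Lpo, lactoperoxidase, measured 113, 212 and 113 in brainstem against 2.23, 0.873 and 5.32 in cortex (log2 fold change 4.25, SE 0.40, adjusted p = 3.6e-05). A2m, a broad protease inhibitor, measured 1551, 499 and 537 against 117, 27.9 and 36.1 (log2 fold change 3.78, adjusted p = 0.0145) and was lost without brainstem library 2 (adjusted p = 0.0542). Fabp3, a fatty acid carrier, measured 266, 81.4 and 162 against 25.3, 7.86 and 4.25 (log2 fold change 3.36, adjusted p = 0.00131). Klk6, a secreted protease abundant in oligodendrocytes, measured 42.1, 56.6 and 63.7 against 2.23, 0.873 and 2.13 (log2 fold change 3.12, adjusted p = 0.000561), with oligodendrocyte markers also higher in all 3 brainstem libraries. That no brainstem value of these genes overlaps a cortex value was required by their choice. A2m, Fabp3, Serpinb1b and Slit2 had the order of the choroid plexus sums within brainstem and were highest in cortex library 1, as those sums were. Serpinb1b has close paralogs, and how reads that fit several genes were counted is not given, so its value of 113 ± 48.2 against 6.88 ± 9.49 is uncertain.

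The largest falls reported here were Lhx2, Chrdl1, Camk2a, Nr2e1, Emx2, Hapln1, Dkk3, Ddn, St6galnac5, Emx2os and Fezf2. Each was called in all 6 fits with a library left out. Chrdl1, a secreted BMP antagonist by which cortical astrocytes promote maturation of AMPA receptor synapses (chromosome X, 143285674 to 143394262, minus strand), measured 3.63, 2.76 and 4.34 in brainstem against 1197, 1819.8 and 1579 in cortex. It was 428-fold lower (log2 fold change -7.47, SE 0.25, adjusted p = 5.03e-09). Dkk3, a secreted protein related to the Dickkopf inhibitors of Wnt signals, measured 71.9, 74.5 and 37.6 against 2736, 2896 and 2869 (log2 fold change -5.47, SE 0.23, adjusted p = 3.69e-08). Hapln1, a link protein that ties hyaluronan to proteoglycans in perineuronal nets, measured 28.3, 20.7 and 7.24 against 948, 1168 and 983 (log2 fold change -5.56, SE 0.32, adjusted p = 6.14e-07). St6galnac5, a sialyltransferase of brain gangliosides, measured 17.4, 12.4 and 7.24 against 400.4, 496 and 517 (log2 fold change -4.81, adjusted p = 6.27e-07). The brainstem values of these 4 genes were at 74.5 or less in every library, and the cortex values at 400.4 or more.

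Camk2a and Ddn, the first a kinase of forebrain excitatory synapses and the second a postsynaptic protein, are neuronal genes among the largest falls. Camk2a measured 38.5, 9.66 and 75.3 in brainstem against 3549, 3186 and 3859.9 in cortex (log2 fold change -6.57, SE 0.59, adjusted p = 0.00131), and Ddn 0 reads against 567. Of the 10 tested cortical excitatory neuron markers, 7 fell. Camk2a is itself counted among these 7 and in the sums given above, while Ddn is not on that list.

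**Figure D4:**
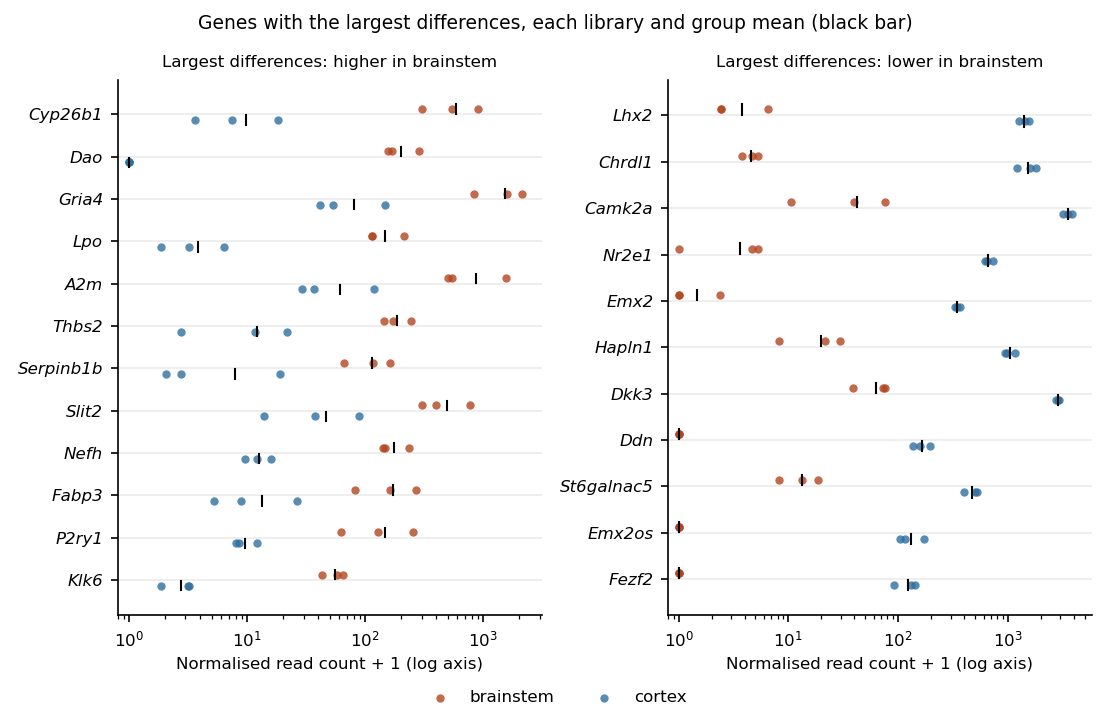
Normalised read count plus 1 (log axis) in each library of the 12 largest rises and the 11 largest falls reported here, brainstem (red) above cortex (blue), with group means as black bars, n = 3 each. No brainstem value overlaps a cortex value in any of the 23, a property the choice of genes required.

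The glutamate transporter genes Slc1a2 and Slc1a3 and the glutamine synthetase gene Glul fell in brainstem libraries, and the glutamine transporter gene Slc38a1 rose. Of 18 listed, 17 were tested, 5 rose, among them Slc38a1, Bcat1, Got2 and Got1, the last lost without brainstem library 1 or 3 or cortex library 2 or 3, and 4 fell (Slc1a2, Slc1a3, Glul and Slc7a11), with a median of 0.19. Slc1a3, the glutamate transporter GLAST (chromosome 15, 8634124 to 8710764, minus strand), measured 1349.7, 4348 and 3536 in brainstem against 20344, 23319 and 21892 in cortex, 7.1-fold lower (log2 fold change -2.99, SE 0.38, adjusted p = 0.000412). Slc1a2, the transporter GLT-1, measured 42678, 143855 and 77922 against 259955, 376639 and 327571, 3.65-fold lower (log2 fold change -2.02, SE 0.50, adjusted p = 0.0214). Glul, glutamine synthetase, measured 6792, 12878 and 11040.4 against 25460.0, 31528 and 31145 (log2 fold change -1.56, SE 0.32, adjusted p = 0.0076). Slc7a11, the cystine-glutamate exchanger, measured 606 ± 246 against 1759.7 ± 264 (SD, n = 3 each; log2 fold change -1.59, adjusted p = 0.00196). In all 4, every brainstem library lay below every cortex library.

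Slc38a1, a glutamine transporter, measured 576, 535 and 667 in brainstem against 187, 121 and 132 in cortex, 4.05-fold higher (adjusted p = 6.98e-05). Bcat1, a transaminase that moves nitrogen from branched-chain amino acids to glutamate, measured 37.8, 45.5 and 91.2 against 8.17, 18.3 and 14.9 (log2 fold change 1.70, adjusted p = 0.0222). With the astrocyte core markers, which include Slc1a2, Slc1a3 and Glul, as scaling, Slc1a3 was at -2.39 (adjusted p = 7.32e-06), Slc1a2 at -1.42 (0.0086) and Glul at -0.96 (0.000289). The calls of Slc1a2, Glul, Bcat1 and Got2 were lost in fits without brainstem library 3, cortex library 2 or cortex library 3, and those of Slc1a2 and Bcat1 also without cortex library 1, with adjusted p of up to 0.151. Got2 had the order of the choroid plexus sums within brainstem and was highest in cortex library 1, as those sums were.

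A glycine transporter rose in brainstem and a glycine-degrading enzyme fell. Slc6a9, the astrocyte glycine transporter GlyT1 (chromosome 4, 117834506 to 117875198, plus strand), measured 838, 1502 and 1020.4 in brainstem against 179.8, 110.0 and 131 in cortex, 7.99-fold higher (log2 fold change 2.94, SE 0.24, adjusted p = 1.27e-05). Gldc, the glycine-degrading subunit of the mitochondrial glycine cleavage system, went the other way, at 25.4, 42.8 and 26.1 against 553, 668 and 573, 19.0-fold lower (log2 fold change -4.08, SE 0.24, adjusted p = 6.14e-07). For both genes the groups were far apart in every library. Glra1, a glycine receptor subunit of brainstem and spinal neurons, gave 62 reads in brainstem and 0 in cortex (adjusted p = 0.0106), and fell under the filter on low values, with no test, without brainstem library 1 or 3. Glrb, the receptor's anchoring subunit, measured 325 ± 83.5 against 685 ± 59.6 (SD, n = 3 each; log2 fold change -1.09, adjusted p = 0.00629).

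Of the 23 GABA and glycine genes, 21 were tested, 2 rose (Slc6a9 and Glra1) and 4 fell (Gldc, Glrb, Gabrb1 and Maob), with a median of -0.49. The share that passed was 28.6%, against 9.96% of all genes. The GABA transporter Slc6a11 (GAT-3) did not pass. It measured 5166, 14335 and 7459.6 in brainstem against 3709.5, 5009 and 4446 in cortex (log2 fold change 0.91, adjusted p = 0.112). Slc6a11 did not overlap between regions and passed with astrocyte core scaling (1.51, adjusted p = 1.76e-05). Gabrb1 and Maob were lost without brainstem library 3 or cortex library 2 or 3 (up to 0.174), Gabrb1 also without brainstem library 1 and Maob without cortex library 1. Glrb, Gabrb1 and Maob did not pass under that scaling (adjusted p = 0.241, 0.485 and 0.948).

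The promoter windows of the transporter that fell and the one that rose are given with the same motifs in capitals. That of Slc1a3 (chr15:8710758-8711057, minus strand) holds TAATTA, and that of Slc6a9 (chr4:117835008-117835307, plus strand, 1 of 3 windows of the gene) holds TGATTGAT on the opposite strand.
Slc1a3: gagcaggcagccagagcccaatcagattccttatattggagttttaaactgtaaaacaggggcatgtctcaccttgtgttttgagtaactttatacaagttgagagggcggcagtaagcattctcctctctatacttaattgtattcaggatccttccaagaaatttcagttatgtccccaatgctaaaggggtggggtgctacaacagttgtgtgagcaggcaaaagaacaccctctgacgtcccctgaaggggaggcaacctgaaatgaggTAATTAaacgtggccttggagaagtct
Slc6a9: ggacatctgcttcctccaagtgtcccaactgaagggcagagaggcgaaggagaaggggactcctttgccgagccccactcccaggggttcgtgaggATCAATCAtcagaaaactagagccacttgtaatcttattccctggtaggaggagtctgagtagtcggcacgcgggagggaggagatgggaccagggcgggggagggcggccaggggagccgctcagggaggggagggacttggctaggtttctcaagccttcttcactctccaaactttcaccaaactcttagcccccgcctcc
The share of all tested genes with each motif, 3.34% and 0.473%, is the background for these matches.

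Receptors for glutamate changed in both directions. Of 22 listed, 20 were tested, 4 rose (Gria4, Gria1, Grm5 and Grm8) and 3 fell (Grm3, Grin2c and Gria2), with a median of -0.04. The share that passed was 35%, against 9.96% of all genes. Gria4, an AMPA receptor subunit (chromosome 9, 4417896 to 4796234, minus strand), measured 830.3, 2129.8 and 1599 in brainstem against 52.0, 147 and 40.4 in cortex, 19.1-fold higher (log2 fold change 4.28, SE 0.53, adjusted p = 0.00368). Gria1, another AMPA subunit, measured 694, 2244 and 1337 against 319, 190.4 and 209 (log2 fold change 2.43, SE 0.39, adjusted p = 0.00501). Gria2, the subunit that makes AMPA receptors impermeable to calcium, measured 227, 371 and 272 against 509, 609.5 and 715 (log2 fold change -1.08, SE 0.22, adjusted p = 0.00716), and was lost without cortex library 3 (adjusted p = 0.0657) and with astrocyte core scaling (adjusted p = 0.262). Grm3, the main group II metabotropic receptor of astrocytes, measured 149, 477 and 404 against 2935, 4064 and 3666, 10.4-fold lower (log2 fold change -3.50, SE 0.38, adjusted p = 0.000424). Grm5, a group I receptor, measured 151, 440.0 and 201.2 against 95.1, 96.9 and 116 (log2 fold change 1.18, adjusted p = 0.0427). It passed without brainstem library 2 with a log2 fold change of 0.75 (adjusted p = 0.0484) and was lost without brainstem library 3 or any cortex library (up to 0.169). Grin2c, an NMDA receptor subunit, measured 154, 178 and 203 against 514, 614 and 630.4 (log2 fold change -1.69, adjusted p = 0.000115). Grm8 measured 44.3, 17.9 and 21.7 against 5.2, 0.873 and 4.25 (log2 fold change 1.92, adjusted p = 0.03) and was lost without brainstem library 3 or cortex library 2 or 3 (up to 0.122). Without brainstem library 1 its mean was under 10 and it was not tested. Its values had the order of the choroid plexus sums within brainstem and were highest in cortex library 1, as those sums were.

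Among 43 listed receptors for monoamines, purines and peptides, 26 were tested, 3 rose and 3 fell, 23.1% against 9.96% of all genes. The falls were Cnr1, S1pr1 and P2ry12. P2ry12 is also on the microglia list and was lost without brainstem library 1 or any cortex library (adjusted p of up to 0.127). P2ry1, an ADP receptor coupled to calcium release, measured 61.0, 252 and 126 in brainstem against 11.1, 6.99 and 7.44 in cortex, 17.2-fold higher (log2 fold change 3.28, SE 0.46, adjusted p = 0.000683). Adra2a, an inhibitory noradrenaline receptor, measured 105, 153 and 137 against 11.9, 21.0 and 6.38, 10.1-fold higher (log2 fold change 2.99, SE 0.37, adjusted p = 0.000313). The lysophosphatidic acid receptor Lpar1, also a gene of oligodendrocytes, measured 478, 849.7 and 1039 against 360.3, 193 and 240.2 (log2 fold change 1.53, adjusted p = 0.00722). Cnr1, the cannabinoid receptor, fell, with 3.63, 15.2 and 33.3 against 103, 161 and 164 (log2 fold change -2.94, SE 0.47, adjusted p = 0.00203). S1pr1, a sphingosine-1-phosphate receptor of astrocytes, measured 1378 ± 523 against 4479 ± 723 (SD, n = 3 each; log2 fold change -1.75, adjusted p = 0.0014). P2ry1 was at 11.1 or less in each cortex library and at 61.0 or more in each brainstem library.

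Of 28 potassium, water and gap junction channel genes, 27 were tested, 3 rose (Kcnd2, Kcng4 and Sntb1) and 5 fell (Kcnk2, Kcnn3, Dtna, Hepacam and Kcnk1, the last lost without brainstem library 3 or any cortex library). The share that passed was 29.6%, against 9.96% of all genes. Kcnd2, an A-type potassium channel, measured 335, 777 and 482 in brainstem against 157, 139 and 154 in cortex (log2 fold change 1.71, SE 0.26, adjusted p = 0.00146). Kcnk2, the mechanosensitive leak channel TREK-1, measured 26.2, 41.4 and 59.3 against 459, 347 and 457, 9.95-fold lower (log2 fold change -3.22, SE 0.28, adjusted p = 1.71e-05). Kcnj10, the Kir4.1 channel of potassium buffering, measured 11555, 28741 and 13023 against 7252, 10723 and 11169 (log2 fold change 0.77, adjusted p = 0.215). It did not overlap between regions and passed with astrocyte core scaling (1.37, adjusted p = 5.69e-05). The connexin genes did not pass: Gja1 measured 1573, 2713 and 2005 against 3171, 3819 and 3561 (log2 fold change -0.78, adjusted p = 0.0601), and Gjb6 1073, 2171 and 1385 against 1564, 1709.8 and 1501 (log2 fold change -0.10, adjusted p = 0.851). Kcnn3, Dtna and Hepacam were lost without brainstem library 1 or 3 or cortex library 2 or 3 (adjusted p of up to 0.186), Hepacam also without cortex library 1, and with astrocyte core scaling (up to 0.43). Kcng4 was lost without brainstem library 3 or cortex library 3 (up to 0.0795), and Sntb1 without brainstem library 1 or cortex library 2 or 3 (up to 0.112).

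Secreted proteins that act on synapses included strong rises and falls. Of 39 listed, 35 were tested, 2 rose (Thbs2 and Sparc) and 12 fell, with a median of -0.55. The share that passed was 40%, against 9.96% of all genes. Thbs2, a thrombospondin that promotes synapse formation, measured 172, 241 and 143 in brainstem against 20.8, 1.75 and 10.6 in cortex, 16.8-fold higher (log2 fold change 3.74, SE 0.45, adjusted p = 0.000292). Sparc, which counteracts the synapse-promoting protein encoded by Sparcl1, measured 8422, 30370.3 and 17733 against 3514, 3222 and 3946, 5.29-fold higher (log2 fold change 2.22, SE 0.39, adjusted p = 0.00378). Sparcl1 measured 21249, 58215 and 28685 against 44871, 51683 and 46794 (log2 fold change -0.54, adjusted p = 0.461), with overlapping groups. Chrdl1 and Hapln1, described above, were among the falls. Mfge8, a bridging protein for phagocytosis, is not on this list and is not in its counts. It measured 130.0, 201.4 and 197 against 1715, 2318 and 1853, 11.1-fold lower (log2 fold change -3.46, SE 0.21, adjusted p = 7.85e-07). Mertk, a receptor by which astrocytes engulf synapses, is on the list and counted among its falls, though it is a membrane protein. It measured 152, 241 and 239 against 1503, 1628 and 1502, 7.33-fold lower (log2 fold change -2.87, SE 0.21, adjusted p = 3.04e-06). Ptn, the growth factor pleiotrophin, measured 1110.5 ± 226 against 5475 ± 665 (SD, n = 3 each; log2 fold change -2.31, adjusted p = 3.81e-05).

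Guidance cues included some of the larger rises. Of 70 listed ligands and receptors of axon guidance, 54 were tested, 3 rose (Slit2, Ntn1 and Epha4) and 6 fell, with a median of -0.39. The share that passed was 16.7%, against 9.96% of all genes. Slit2, a repellent cue, measured 774, 299 and 398 in brainstem against 87.6, 36.7 and 12.8 in cortex (log2 fold change 3.48, SE 0.61, adjusted p = 0.013), and was lost without cortex library 2 (adjusted p = 0.0774). Ntn1, netrin-1, measured 77.0, 178 and 103 against 11.1, 2.62 and 20.2 (log2 fold change 3.01, SE 0.47, adjusted p = 0.00146). Its receptor Dcc fell, with 9.44, 16.6 and 37.6 against 139, 187 and 123 (log2 fold change -2.69, adjusted p = 0.00095). Ephb1 and Epha5, ephrin receptors, measured 50.2 ± 15.5 against 369 ± 83.4 and 51.3 ± 27.7 against 242 ± 29.2 (SD, n = 3 each), with log2 fold changes of -2.78 and -2.26 (adjusted p = 3.75e-05 and 0.00141). Epha4 measured 385 ± 118 against 199 ± 22.0 (SD, n = 3 each; log2 fold change 0.90, adjusted p = 0.025) and was lost without brainstem library 3 or any cortex library (up to 0.0986).

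**Figure D5:**
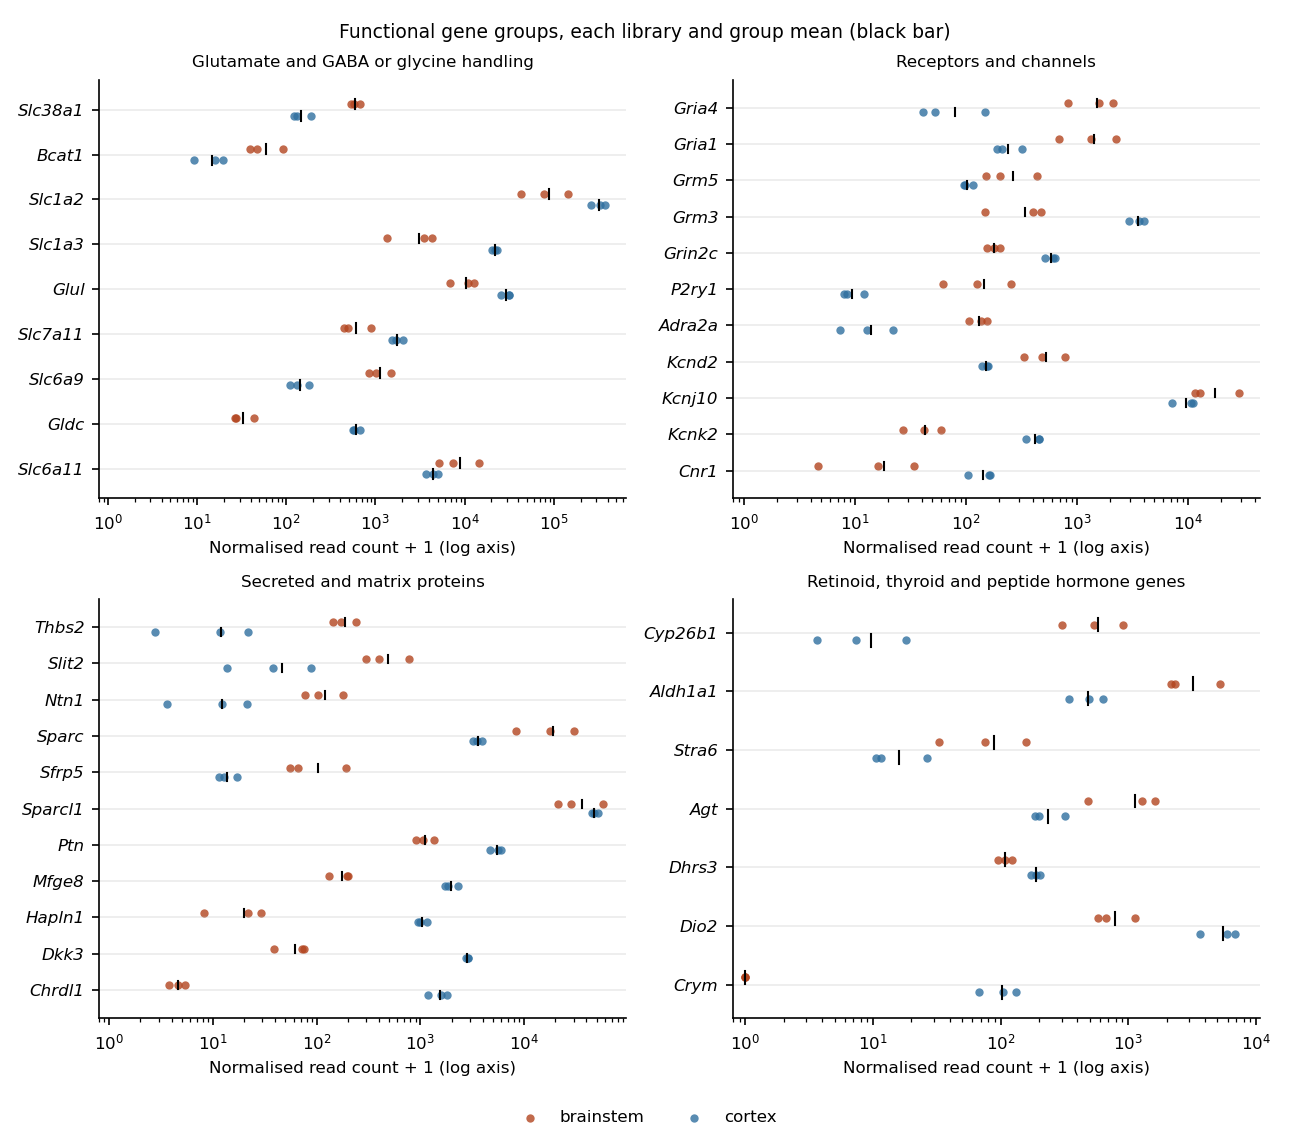
Normalised read count plus 1 (log axis) in each library for 4 groups of genes, brainstem (red) above cortex (blue), with group means as black bars, n = 3 each. Slc6a9, Gria4, Thbs2 and Cyp26b1 are higher in every brainstem library, Slc1a3, Gldc, Grm3, Chrdl1 and Dio2 are lower in every one, and Sparcl1 overlaps.

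Retinoid and thyroid hormone genes changed in both directions. Of 26 retinoid and thyroid genes, 19 were tested, 3 rose (Cyp26b1, Aldh1a1 and Stra6) and 3 fell (Dio2, Crym and Dhrs3), with a median of -0.23. The share that passed was 31.6%, against 9.96% of all genes. Aldh1a1, a retinaldehyde dehydrogenase that makes retinoic acid, measured 2312, 5239 and 2169.6 in brainstem against 339, 489 and 628 in cortex, 6.67-fold higher (log2 fold change 2.65, SE 0.34, adjusted p = 0.000713). Dio2, which activates thyroid hormone in astrocytes, measured 583, 1123 and 669 against 3630.0, 6879 and 5985, 6.95-fold lower (log2 fold change -2.80, SE 0.29, adjusted p = 8.42e-05). Crym, a thyroid hormone-binding crystallin, had 0 reads in brainstem and 352 in cortex (adjusted p = 3.6e-05). Stra6, a retinol transporter also known from choroid plexus, measured 158, 31.7 and 73.8 against 25.3, 10.5 and 9.57 (log2 fold change 2.04, adjusted p = 0.0254). Its order within brainstem followed the choroid plexus sums, and it was lost without brainstem library 1 or 3 or cortex library 2 or 3 (up to 0.124). Dhrs3, which reduces retinaldehyde, measured 108 ± 14.4 against 188 ± 16 (SD, n = 3 each; adjusted p = 0.0404), and was lost without any library but brainstem library 2 (up to 0.172) and with astrocyte core scaling (adjusted p = 0.713).

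Agt, angiotensinogen, rose alone among 9 tested renin-angiotensin and natriuretic genes (11.1%, against 9.96% of all genes). It measured 485, 1613 and 1277 in brainstem against 319, 185 and 199.9 in cortex, 4.79-fold higher (log2 fold change 2.11, SE 0.43, adjusted p = 0.0185). The call was lost without brainstem library 2 or 3 or cortex library 2 or 3 (adjusted p of up to 0.078). It was kept with astrocyte core scaling (adjusted p = 0.000127), which moves log2 fold changes upward.

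Genes of developmental signalling pathways passed at 14.3% to 25.0% of those tested, by list, against 9.96% of all genes. Of 53 listed Wnt genes, 34 were tested, 4 rose (Sfrp5, Wnt5a, Wnt8b and Lrp6) and 4 fell (Dkk3, Lgr4, Fzd2 and Znrf3), with a median of 0.00. Sfrp5, a secreted Wnt antagonist, measured 64.7, 189 and 55.0 in brainstem against 11.9, 10.5 and 15.9 in cortex (log2 fold change 2.40, SE 0.44, adjusted p = 0.00446). Lgr4, a receptor that amplifies Wnt signals, measured 231, 302 and 227 against 984, 1065 and 1156 (log2 fold change -2.06, SE 0.18, adjusted p = 2.06e-05). Fzd2, a Wnt receptor, measured 50.8 ± 35.9 against 205 ± 14.8 (SD, n = 3 each; log2 fold change -2.11, adjusted p = 0.00439), and did not pass with astrocyte core scaling (adjusted p = 0.0505). The calls of Lrp6 and Znrf3 were lost in 5 of the 6 fits with a library left out, and that of Wnt8b in 4, while without brainstem library 2 its mean was under 10 and it was not tested. The call of Wnt5a was lost without brainstem library 3 or cortex library 1 or 2 (adjusted p of up to 0.105; up to 0.217 for Lrp6). Among 16 tested Hedgehog genes 2 rose and 2 fell. Boc, a Hedgehog co-receptor, measured 138, 169.7 and 158 against 64.6, 42.8 and 48.9 (log2 fold change 1.501, SE 0.26, adjusted p = 0.00289). Gli3, a transcription factor of the pathway that patterns the dorsal forebrain, measured 207, 308 and 369 against 895, 1044 and 989.7 (log2 fold change -1.75, SE 0.22, adjusted p = 0.000322). Of 35 tested Notch and BMP genes 1 rose and 4 fell, with Hes5, a Notch target, at 0.726, 19.3 and 20.3 against 119, 88.2 and 80.8 (log2 fold change -2.71, adjusted p = 0.00611). Of 19 tested FGF genes 0 rose (limma unadjusted 1, DESeq2 0, edgeR 0) and 4 fell. Fgf13, an intracellular member that modulates sodium channels, measured 21.8, 12.4 and 21.7 against 161, 286 and 249.8 (log2 fold change -3.32, SE 0.32, adjusted p = 3.6e-05). Fgfr1 and Fgfr2 fell as well (log2 fold change -1.12 and -0.93, adjusted p = 0.00305 and 0.00507), but did not pass with astrocyte core scaling (adjusted p = 0.254 and 0.411).

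Glial transcription factors, all 23 of which were tested, included 7 that fell and 0 that rose (limma unadjusted 1, DESeq2 0, edgeR 0). Sox21, an antagonist of SOX2-type activators, measured 50.1, 105 and 68.0 in brainstem against 367, 561 and 405 in cortex (log2 fold change -2.54, SE 0.27, adjusted p = 8.57e-05). Id4, an inhibitor of basic helix-loop-helix factors, measured 123, 166 and 135 against 516, 681 and 634 (log2 fold change -2.08, SE 0.20, adjusted p = 3.6e-05). The nuclear factor I genes did not pass. Nfia measured 2248, 4073 and 3063 against 3928, 4555 and 4819.8 (log2 fold change -0.54, adjusted p = 0.217), Nfib was at -0.53 (adjusted p = 0.14) and Nfix at -0.15 (adjusted p = 0.723), and all 3 turned positive with astrocyte core scaling (0.06, 0.07 and 0.44). Of 8 tested Hox cofactors 0 rose (limma unadjusted 2, DESeq2 0, edgeR 0) and 2 fell, among them Meis2 with 197, 193 and 198 against 444, 548 and 525 (log2 fold change -1.34, adjusted p = 0.000488). Meis2 did not pass with astrocyte core scaling (adjusted p = 0.154).

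Among the astrocyte core markers that fell, those with the smallest p beside Slc1a3 were Fjx1, Clu and Ranbp3l. Fjx1, a glycoprotein, measured 126, 221 and 149 in brainstem against 703, 1076 and 866 in cortex (log2 fold change -2.40, SE 0.23, adjusted p = 3.89e-05). Clu, the lipid-carrying protein clusterin, measured 4064, 7373 and 4611 against 17071, 20657 and 19461 (log2 fold change -1.88, SE 0.29, adjusted p = 0.00139). Ranbp3l measured 5.09, 48.3 and 11.6 against 279, 251 and 333 (log2 fold change -3.81, adjusted p = 0.00116). S100b, a calcium-binding protein, measured 2094, 4324 and 3325 against 1909, 2733 and 2294 (log2 fold change 0.44, adjusted p = 0.367), Aldoc 10312, 22704 and 15902 against 19905, 23189 and 21348 (log2 fold change -0.47, adjusted p = 0.441), and Vim 155, 121 and 316 against 256, 192 and 254 (log2 fold change -0.35, adjusted p = 0.553). Aldh1l1, Aldoc, Gjb6 and Vim turned positive with astrocyte core scaling (0.11, 0.13, 0.49 and 0.24), and Aqp4, Gfap, S100b and Kcnj10 passed as higher (adjusted p = 0.000328, 0.0396, 0.00245 and 5.69e-05). A direction for Aldh1l1, Aldoc, Gjb6 and Vim is therefore not given. Aqp4, Gfap, S100b and Kcnj10 were positive with either scaling, and whether they passed depended on it. Aldh1l1, Aldoc, Gjb6, Aqp4, Gfap and S100b are themselves core markers that set this scaling, so their results with it are not independent of it.

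Metabolic genes passed at 8.33% to 17.1% of those tested, by list, against 9.96% of all genes. Of 24 tested genes of cholesterol synthesis 0 rose (limma unadjusted 1, DESeq2 0, edgeR 0) and 2 fell, and of 35 tested fatty acid and lipoprotein genes 2 rose and 4 fell. Elovl5, a fatty acid elongase, measured 791, 847 and 864 in brainstem against 1702, 2183 and 1757 in cortex (log2 fold change -1.16, SE 0.19, adjusted p = 0.00198), and did not pass with astrocyte core scaling (adjusted p = 0.159). Of 29 tested genes of glycolysis, glycogen and lactate 3 rose and 1 fell. The 2 glycogen phosphorylases that passed went opposite ways. Pygm measured 609, 1046 and 809 against 307, 414 and 237 (log2 fold change 1.35, SE 0.24, adjusted p = 0.00414), and Pygb measured 1625 ± 521 against 2925 ± 434 (SD, n = 3 each; log2 fold change -0.88, adjusted p = 0.0428). Pygb was lost without any library but brainstem library 2 (up to 0.205) and with astrocyte core scaling (adjusted p = 0.295), and Pygm was kept in both.

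Some markers of oligodendrocytes and of ciliated ependymal cells rose. Of 18 oligodendrocyte markers 6 rose and 0 fell (limma unadjusted 0, DESeq2 0, edgeR 0), with a median of 1.09. Mobp, a myelin protein, measured 1656, 2110.5 and 2777 in brainstem against 928, 589 and 619 in cortex (log2 fold change 1.61, SE 0.24, adjusted p = 0.00123), and Ermn, a cytoskeletal protein of myelin, 613, 708 and 1135 against 357, 189 and 234 (log2 fold change 1.63, adjusted p = 0.00249). Of 12 tested ependymal markers 7 rose and 0 fell (limma unadjusted 0, DESeq2 0, edgeR 0), among them Foxj1, the master factor of motile cilia, at 221, 57.9 and 178 against 33.4, 5.24 and 23.4 (log2 fold change 2.62, adjusted p = 0.016), and Ak7, an adenylate kinase of motile cilia, at 49.4, 30.3 and 57.9 against 8.17, 3.49 and 0 (log2 fold change 2.59, adjusted p = 0.00501). The edgeR test called 2 of the 12 higher. Foxj1 was lost without brainstem library 3 or cortex library 2 or 3 (up to 0.0722), and the ependymal sums were 1084, 357 and 764 against 260.0, 79.5 and 97.8. Foxj1 and the ependymal sums had the order of the choroid plexus sums within brainstem and were highest in cortex library 1, as those sums were. The listed ependymal genes Ccdc153 and Tmem212 had no brainstem read, and neither reached the level needed for a test.

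Neuronal genes changed in both directions. Slc17a7, the vesicular glutamate transporter of cortical neurons, measured 14.5, 9.66 and 7.24 in brainstem against 76.5, 99.5 and 151 in cortex (log2 fold change -2.86, SE 0.37, adjusted p = 0.000424). Slc17a6, the transporter of brainstem and thalamic neurons, went the other way with 37.0, 38.6 and 44.9 against 2.23, 1.75 and 3.19 (log2 fold change 2.61, SE 0.43, adjusted p = 0.00209). The neurofilaments of large axons rose: Nefh measured 235, 139 and 145 against 11.1, 14.8 and 8.5 (log2 fold change 3.41, SE 0.33, adjusted p = 3.89e-05), Nefm 104 ± 19.9 against 20.1 ± 7.66 and Nefl 293 ± 68.7 against 95.4 ± 49.3 (SD, n = 3 each; adjusted p = 0.00173 and 0.00583). Of 21 general neuron markers 5 rose and 2 fell, 33.3% against 9.96% of all genes. Their sums overlapped, at 4873, 5179.6 and 5468 in brainstem and 4623, 5265 and 6230.4 in cortex. Of 16 brainstem neuron markers 5 were tested and Slc17a6 alone passed. The listed brainstem genes Slc6a5, Dbh, Th, Chat, Fev and Calca had no cortex read, but none of them reached the level needed for a test.

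Stress and immune genes passed at 0% to 10% of those tested, by list, against 9.96% of all genes. Of 31 tested immediate early and dissociation genes 0 rose (limma unadjusted 2, DESeq2 1, edgeR 0) and 1 fell, Arc, at 29.8, 12.4 and 18.8 in brainstem against 48.3, 113 and 87.2 in cortex (log2 fold change -1.77, adjusted p = 0.0133), which was lost without brainstem library 3 or cortex library 2 or 3 (up to 0.0932). Arc also did not pass with astrocyte core scaling (adjusted p = 0.145). Of 22 tested interferon genes 1 rose, Ifi27, at 543, 255 and 307 against 146, 107 and 113 (log2 fold change 1.498, adjusted p = 0.00409). Ifi27 had the order of the choroid plexus sums within brainstem and was highest in cortex library 1, as those sums were. Of 20 microglia markers 0 rose (limma unadjusted 0, DESeq2 0, edgeR 0) and 2 fell, and of 9 tested macrophage markers 0 passed (limma unadjusted 0, DESeq2 0, edgeR 0). The microglia share of 10% is close to that of all genes. The 2 that fell, P2ry12 and Sall1, did not pass with astrocyte core scaling (adjusted p = 0.512 and 0.504).

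The regional difference was also measured in the 6 libraries labelled knockout, none of which entered the comparison above. There 1137 of 11741 genes (9.68%) passed, 576 (4.91%) higher in brainstem and 561 (4.78%) lower. Of the genes that rose in control libraries and were tested in both, 503 of 517 (97.3%) were higher in brainstem libraries labelled knockout too, and 287 (55.5%) passed. Of those that fell, 636 of 653 (97.4%) were lower and 402 (61.6%) passed. No gene that passed in controls passed in the opposite direction, and over all 11610 genes tested in both the direction was shared by 67.6%. All 12 of the largest rises and all 11 of the largest falls reported here kept their direction and passed. On the scale of the 12 libraries, Dao measured 166, 117 and 149 in brainstem and 0 in all 3 cortex libraries labelled knockout (adjusted p = 4.23e-08). Slc6a9 measured 1642, 1064 and 1672 against 332, 269 and 306 (log2 fold change 2.23, adjusted p = 2.43e-06), and Aldh1a1 4503, 3139 and 2879 against 165, 149 and 202 (log2 fold change 4.29, adjusted p = 2.6e-07).

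A test of whether the regional difference itself depended on the genotype label passed for 1 of 11741 genes (0.00852%) in limma. It was Hsd11b1, an enzyme that regenerates active glucocorticoid (difference in log2 fold change 2.30, SE 0.29, adjusted p = 0.00257). At an unadjusted p under 0.05 there were 699 genes, DESeq2 called 22 and edgeR 3. Without brainstem library 2 of the controls the count was 91, and without brainstem library 1 it was 4. Among the 144 named genes that passed in controls, 143 were tested in the libraries labelled knockout and 140 had the same sign. The 3 that did not were Hhatl, Lcat and Maob, none of which passed there (adjusted p = 0.408, 0.439 and 0.152).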

How the data were processed

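RNA of sorted astrocytes was profiled by RNA-seq in 24 libraries, of which the 6 control libraries of brainstem and cortex carry the main comparison. Per the submitters' processing notes, FastQC, STAR 2.5.0a and DESeq2 1.20.0 were used with mm10. The counting tool, annotation, strand setting and handling of reads that fit several genes are not given in the sources used here. For each library the authors deposited normalised signal values under 24421 gene names. Of these, 27 read as dates, and 2 names occurred more than once. Mitochondrially encoded genes are not analysed here. Multiplied by a factor found for each library, 100% of the deposited values became whole reads within 0.001 read, and these were used. For 1 cortex library the factor is close to 1. Reads per library limit precision: 3 reads are the limit that a count of 0 allows, and such limits cover counting error only.

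Reads were rescaled with median-of-ratios factors over the 6 libraries. Genes with a mean of at least 10 (11895) were fitted in limma 3.58.1 (R 4.3.3) on log2 of the value plus 5, with trend and robust moderation, 4 residual degrees of freedom, two-sided tests and Benjamini-Hochberg adjustment over all genes tested, at 0.05. The 6 libraries labelled knockout and the difference between genotypes were fitted over 12 libraries (11741 genes, 8 residual degrees of freedom). The DESeq2 and edgeR tests on recovered reads (versions 1.42.0 and 4.0.16) were alternatives. Named genes were the 12 largest rises and falls among called genes with no overlap and a mean of at least 50 in the higher group, up to 4 called members per direction of each list, and fixed astrocyte and positional genes. Other members are named only to complete a list's count, and some genes are not reported here. Members and lists were chosen with earlier results of these data known. On simulated counts, the control comparison recovered 34 of 100 genes changed 2-fold and 87 of 100 changed 4-fold, and called 8 unchanged genes among 11868. Gene positions are from GENCODE vM21 (GRCm38), in which 23350 names matched, and promoter sequences from RefSeq.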

Additional observations from a re-analysis of the deposited data

Results flagged for a closer look

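Hsd11b1, which encodes 11-beta-hydroxysteroid dehydrogenase type 1, was the 1 gene whose difference between regions depended on the genotype label, by a test of the difference itself (2.30 on the log2 scale, labelled knockout minus control, SE 0.29, adjusted p = 0.00257). In libraries labelled knockout it measured 507, 477 and 573 normalised counts in brainstem against 71.9, 54.7 and 76.4 in cortex (log2 fold change 2.86, adjusted p = 2.47e-08). In control libraries, on the scale of the 12 libraries, it measured 389.8, 550.4 and 412 in brainstem against 238, 360.0 and 319 in cortex (log2 fold change 0.55, adjusted p = 0.124). All 3 cortex libraries labelled knockout lay below all 3 cortex controls, and the brainstem groups overlapped. The gene did not pass with the astrocyte core markers as scaling, where the count of such genes was 0.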

How the results depend on the processing

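Of 144 named genes that passed, 86 passed in all 6 fits with a library left out and none changed sign under a scaling alternative. Over those fits the count of genes called in controls ranged from 511 to 2282, higher from 206 to 1015 and lower from 302 to 1267. The count in libraries labelled knockout ranged from 746 to 1074, and that of genes whose regional difference depended on genotype from 1 to 91. With 1 library left out, 2 remained in its group. Of the 1185 genes called in controls, DESeq2 shared 1177. All 24 libraries in 1 fit gave 1904 calls (830 higher, 1074 lower), limma-voom with sample weights 1780 (850 higher), and deposited values 2013 (1620 higher, 393 lower) in controls and 1870 in libraries labelled knockout. The astrocyte core markers as scaling, chosen after seeing the data, left 202 lower, and of the 144 named genes 111 passed, 68 of 68 higher and 43 of 76 lower. For the difference between genotypes, the count of 1 became 22 in DESeq2, 3 in edgeR with either factor, 6 in limma-voom, 5 with all 24 libraries, 2 with thinned reads and 0 with astrocyte core scaling. The cause of these shifts was not tested.

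The labels do not say whether replicate numbers pair the libraries, and the correlations of deviations from the group means did not settle it. Same-numbered control libraries correlated at 0.2106, 0.2047 and -0.0346. The first 2 were the best matches of their brainstem libraries, while brainstem library 3 correlated best with cortex library 1 (0.1653). Same-numbered libraries labelled knockout correlated at 0.0520, 0.0691 and 0.1282, each the best match of its brainstem library. With the number as a block, calls rose to 1907 (937 higher, 970 lower), 1183 of them shared with the fit without it, and those of the difference between genotypes to 5.

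Sign changes were limited to named genes that did not pass. With astrocyte core scaling the log2 fold change turned to 0.11 for Aldh1l1, 0.13 for Aldoc, 0.49 for Gjb6, 0.33 for Id3, 0.60 for Il33, 0.0601 for Nfia, 0.0668 for Nfib, 0.44 for Nfix, 0.59 for Rn45s, 0.0627 for Sparcl1 and 0.24 for Vim. On deposited values it was 0.26 for Gjb6, 0.11 for Id3, 0.37 for Il33, 0.21 for Nfix, 0.35 for Rn45s and 0.0116 for Vim. With total reads other than Rn45s it was 0.10 for Gjb6, 0.21 for Il33, 0.0551 for Nfix and 0.20 for Rn45s. Il33, close to 0 in the reported fit, was at 0.11 in DESeq2, 0.0010 with 20 added, 0.0186 with all 24 libraries, and 0.11 and 0.12 in edgeR with RLE and TMM factors. Rn45s was at 0.0064 with all 24 libraries, 0.0054 and 0.0021 in edgeR with RLE and TMM factors and 0.0602 in limma-voom. With libraries left out, Gjb6 ranged from -0.38 to 0.13, Il33 from -0.37 to 0.28 and Rn45s from -0.0930 to 0.13. Genes with few reads, such as the Hox genes, are limited by depth.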

Other observations

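The levels of the largest regional differences can also be placed among control libraries of hippocampus and olfactory bulb, on the scale of all 24 libraries (mean ± SD, n = 3 each). How near a level lies depends on the scale. On log2 of the mean plus 5, all 11 of the largest falls in brainstem that are reported here were nearer to cortex than to brainstem in hippocampus, and 10 of 11 in olfactory bulb, with Emx2os the exception. On the linear scale, 9 of 11 were nearer to cortex in hippocampus (not Chrdl1 or Dkk3) and 4 of 11 in olfactory bulb. Lhx2, at 4.19 ± 3.5 in brainstem, measured 1571 ± 267 in hippocampus, 1287 ± 188 in olfactory bulb and 2077 ± 210.4 in cortex. Chrdl1 differed among the forebrain regions, with 5.35 ± 1.21 in brainstem, 348 ± 73.9 in hippocampus, 2997 ± 195 in olfactory bulb and 2258 ± 454 in cortex. Hoxa2 measured 44.8 ± 3.44 in brainstem and 0 in every control library of the other 3 regions.

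Genes that rose in brainstem followed more than 1 pattern, and these values were not tested. On the same log2 scale, of the 12 largest rises, 9 were nearer to cortex in hippocampus (not A2m, Serpinb1b or Slit2) and 9 in olfactory bulb (not Gria4, Thbs2 or P2ry1). On the linear scale all 12 were nearer to cortex in hippocampus, and all but Thbs2 in olfactory bulb. Cyp26b1 measured 871 ± 454 in brainstem, 44.0 ± 49.1 in hippocampus, 0.74 ± 1.28 in olfactory bulb and 12.9 ± 11.1 in cortex, and Dao 301 ± 109, 0, 4.13 ± 2.93 and 0 in the same order. Thbs2 was at 277 ± 74.4 in brainstem, 27.3 ± 5.69 in hippocampus, 378 ± 36.0 in olfactory bulb and 16.4 ± 14.1 in cortex. Slc6a9 was likewise high at both ends of the brain axis, with 1675 ± 510.2 in brainstem, 153 ± 33.5 in hippocampus, 1858 ± 261 in olfactory bulb and 207 ± 53.6 in cortex. A2m measured 1287 ± 886 in brainstem, 606 ± 164 in hippocampus, 199 ± 67.4 in olfactory bulb and 89.0 ± 72.7 in cortex.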
